A study of Mus musculus with 3 samples.

Results

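Cycling NK cells were described here among tumor-infiltrating leukocytes (TILs) profiled by droplet-based single-cell RNA sequencing. A cell was taken as an NK cell when it held at least 1 unique molecular identifier (UMI, 1 per captured mRNA molecule) of *Ncr1*, the gene of the NK receptor NKp46, and at most 1 UMI each of *Cd3e* and *Cd8b1*, which belong to the T cell receptor complex and the CD8 co-receptor. It was taken as cycling when its UMIs of *Mki67* and *Top2a*, which encode a coat protein of mitotic chromosomes and the DNA topoisomerase that untangles them, summed to 4 or more. This rule took 568 cells out of 8345 NK cells and out of 31943 cells that passed quality control (1000 to 6000 genes and under 7.5% mitochondrial UMIs), from 34781 cell barcodes. The members were chosen by the measured UMIs of *Ncr1*, *Cd3e*, *Cd8b1*, *Mki67* and *Top2a*, so these genes are described without a test. They were compared with the 6038 NK cells that held no UMI of *Mki67* or *Top2a*, called comparators below. The remaining 1739 NK cells held 1 to 3 such UMIs and entered neither group.

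The cells came from subcutaneous MC38-Ova tumors, an ovalbumin-bearing colon adenocarcinoma line, in wild-type C57BL/6 Kaede mice treated with an isotype control. Every cell of a Kaede mouse fluoresces green until violet light turns its Kaede protein red. Tumors were seeded with 250000 cells, illuminated on day 13 and taken on day 15, so that Kaede Green+ (KG+) cells had entered within the last 48 h and Kaede Red+ (KR+) cells had been in the tumor for at least that long. Live CD45+ TER119- cells were sorted by color with CD11b+ NK1.1- cells left out, into 2 libraries of KG+ cells labeled as biological replicates (Kaede-green 1 and Kaede-green 2) and 1 library of KR+ cells (Kaede-red). The labels give no age of the animals and do not say how many were pooled, and with 1 KR+ library no test between colors could be made. The tumor line was a transplanted one, and each color is a mixture of arrival times.

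A cell in the cycle copies its DNA in S phase and divides after G2 phase in mitosis (M). The enzymes of DNA replication and nucleotide supply are made mainly toward S phase, and the genes of the spindle, the kinetochore and chromosome condensation toward G2 and M. NK cells kill by releasing perforin and granzymes from granules, they produce interferon-γ and chemokines, and they can proliferate in response to IL-2 and IL-15.

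The members carried far more RNA than the comparators. Values of the libraries are listed below in the order Kaede-green 1, Kaede-green 2, Kaede-red. The median of the members was 31542.5, 29752 and 34569.5 UMIs per cell, whereas the comparators had medians of 5911, 7516.5 and 13090. The median number of genes detected was 4859.5 in the members and 2188 in the comparators. A deep cell is more likely to pass a cut on raw UMIs, so every cell was thinned at random to 10000 UMIs before levels were compared. This left 26, 94 and 432 members, with 16 shallower members left out, and 328, 501 and 1177 comparators. Thinning equalizes the UMIs counted but not the cells, since the comparators used still had medians of only 12296.5, 13315 and 18037 raw UMIs. For this reason the comparison was also made against 1 comparator per member of the nearest raw UMI total in the same library, an alternative chosen after the data were seen. These nearest comparators had medians of 25947, 22828.5 and 26371.5 UMIs, nearer to the members but still below them.

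Most members came from the KR+ library. Kaede-green 1 gave 28 of them (4.93%), Kaede-green 2 gave 104 (18.3%) and Kaede-red gave 436 (76.8%). As a share of the NK cells of each library, cycling cells made up 1.08% (exact 95% binomial interval 0.720 to 1.56, 28 of 2590 cells), 3.98% (3.26 to 4.80, 104 of 2616) and 13.9% (12.7 to 15.1, 436 of 3139). The intervals did not overlap, but they cover counting error only. The NK cells of the 3 libraries also differed in depth, with medians of 6117, 8176.5 and 17213 UMIs. When every NK cell was thinned to 10000 UMIs and 2 UMIs of *Mki67* and *Top2a* were required, the shares were 9.09% (6.63 to 12.1, 42 of 462 cells), 15.4% (13.1 to 17.9, 137 of 892) and 19.1% (17.5 to 20.7, 436 of 2287). The KR+ library was then still the highest, but it lay closer to Kaede-green 2 than Kaede-green 2 lay to Kaede-green 1. After thinning to 5000 UMIs, which kept more of the shallow cells, the shares were 1.82%, 5.35% and 11.4%, and the gap between Kaede-red and Kaede-green 2 was the wider one. The order of the libraries was thus the same in these 3 settings, while the size of the gap between colors changed with them.

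**Figure D1:**
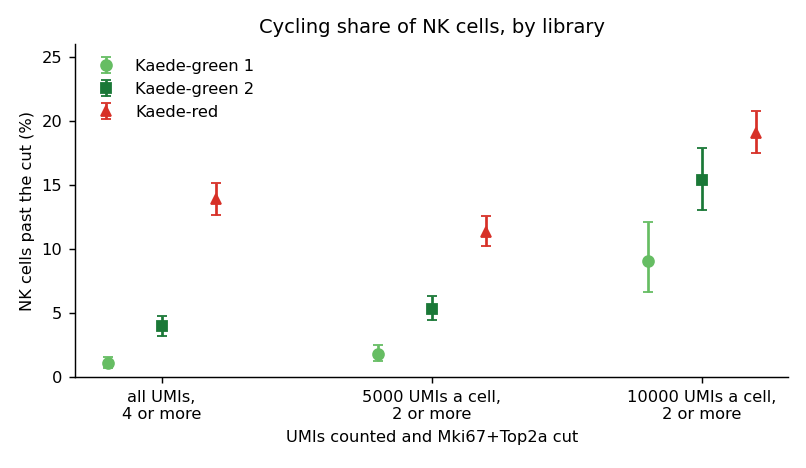
Share of NK cells (percent, vertical axis) past the cut on *Mki67* and *Top2a* in each library, with all UMIs and after thinning to 5000 or 10000 UMIs a cell (horizontal axis). Points are shares and bars are exact 95% intervals. Kaede-red was highest in each setting, at 13.9%, 11.4% and 19.1%.

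CD8 T cells of the same libraries (at least 1 UMI each of *Cd3e* and *Cd8b1*, none of *Ncr1*) gave the same order. Their cycling share by the same cut was 6.27%, 10.6% and 18%. In B cells, 0 of 200, 1 of 100 and 1 of 7 cells passed the cut, at median depths of 4013.5, 4840 and 4975 UMIs. An upper limit of 6000 genes per cell, part of the quality control, left out a further 50 cycling NK cells, of which 2, 7 and 41 came from the 3 libraries. The libraries shared between 20 and 36 cell barcodes with one another, and none of these was a member in both libraries of a pair. Shared barcodes that were a member in only 1 library were not counted.

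The cells just inside the threshold were less deep than the rest. The 99 members with 4 or 5 UMIs of *Mki67* and *Top2a* had a median of 28017 UMIs per cell, and the 510 NK cells with 2 or 3 UMIs, just outside, had 19225.5. The 275 members with 20 or more had 37827. *Birc5*, which encodes survivin of the chromosomal passenger complex, followed the same order, as a description of the rule. Its level was 5.73 counts per 1000000 summed UMIs (CPM) in the comparators, 20.9 at 2 or 3 UMIs, 47.1 at 4 or 5, 103 at 6 to 9, 153 at 10 to 19 and 387 at 20 or more.

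The levels of the genes that chose the cells were fixed by the choice and are given as a description. *Ncr1* stood at 165, 198 and 219.9 CPM in the members and at 233, 218 and 260.5 CPM in the comparators, and 451 of the 568 members held 3 or more *Ncr1* UMIs, while 50 rested on a single one. *Mki67* stood at 188, 302 and 257 CPM and *Top2a* at 419, 559.6 and 505 CPM, and both were at 0 in the comparators by the rule. Markers outside the rule were then read. *Birc5*, a cell cycle gene that goes with *Mki67* and *Top2a*, stood at 262, 194 and 254 CPM against 1.83, 5.19 and 7.05. Its level followed from the rule and is no separate check of the cycling label. NK markers other than *Ncr1* were present in each library, among them *Eomes*, a transcription factor of NK cells, at 119, 122 and 78.5 CPM. It was without a UMI in 128 of the 568 members.

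Markers of other cells were mostly low but not absent. The 11 T cell markers summed to 642, 914 and 759 CPM in the members against 1135, 1105 and 939 in the comparators, and to between 6886 and 9664 CPM in CD8 T cells. The most abundant of them was *Trbc1*, a constant segment of the T cell receptor β chain. It was not low, at 358, 533 and 448 CPM in the members and 612.5, 916 and 646 CPM in cycling CD8 T cells. No T cell marker was at 0 over the members of all 3 libraries, while *Cd4*, *Cd5* and *Cd6* were at 0 in those of Kaede-green 1. The 7 B cell markers summed to 150.0, 420.2 and 271 CPM against 312, 520.2 and 199 in the comparators, so that they were higher in the members of Kaede-red and lower in those of the KG+ libraries. Among the members *Ighm* was the most abundant in Kaede-green 1 and Kaede-red and *Cd74* in Kaede-green 2, and the sum was 36127 CPM in B cells. The 9 myeloid markers reached at most 16.0 CPM, with *C1qb* and *Adgre1* among those at 0. The 8 markers of other innate lymphoid cells summed to 238, 151 and 148 CPM, against 156, 194 and 156 in the comparators, with *Gata3* the most abundant in the members of Kaede-green 2 and Kaede-red and *Tmem176b* in those of Kaede-green 1. In the tests described below, 0 of the 5 that could be tested were called against all comparators by edgeR or DESeq2 (1 lower and 0 higher at an unadjusted p under 0.05 in edgeR), 0 of 5 against 2 comparators of nearest depth per member, and 3 of 4 rose against 1, among them *Rora* with a log2 fold change of 0.79. Their part in the results against those nearest comparators was not tested. The 5 mast cell or basophil markers summed to at most 1.16 CPM and the 4 red cell markers to at most 1.06 CPM. The 7 tumor or stroma markers summed to 3.85, 29.8 and 17.8 CPM, with *Krt8*, *Col1a1* and *Col3a1* at 0. A high doublet score was found for 48 members, 61 held 5 or more UMIs of *Cd3d*, *Cd3g* and *Trac*, and 93 held 2 or more of *Rora*, which innate lymphoid cells express. When cells with a high doublet score were left out, the shares were 1.04%, 3.48% and 13.1%. Among NK cells without any UMI of 5 T cell genes, which kept only 1471, 658 and 1157 cells, the shares were 0.612%, 0.912% and 6.48%.

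The cell cycle genes rose together, which the rule brings about and which is described without a test. The summed level of the S phase list was 3700, 3529 and 3957 CPM in the members, against 1029, 1015 and 1007 CPM in the comparators. The summed level of the G2/M list, with *Mki67* and *Top2a* in it, was 6750, 7535 and 7449 CPM against 1491, 1630 and 1279. The genes with the largest fold were mitotic ones for the most part. *Kif2c*, a kinesin that takes apart microtubules at the kinetochore, stood at 7.69, 19.1 and 19 CPM against 0, 0 and 0.255. *Hmmr*, a spindle protein, stood at 15.4, 56.4 and 50 CPM against 0.305, 0.599 and 0.595, and *Nusap1*, which binds spindle microtubules, at 84.6, 162 and 160.2 CPM against 0.610, 1.60 and 2.89. *Bub1*, *Anln*, *Ckap2l* and *Pimreg* had the same pattern. *Rrm2*, the S phase subunit of ribonucleotide reductase, which makes deoxyribonucleotides, stood at 142, 152 and 227 CPM against 3.96, 3.59 and 4.16. For these genes, picked for their large fold, every cycling sum lay above every comparator sum.

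Promoters of 4 G2/M genes are shown because many genes of this group are known to share a short element near their start, the cell cycle genes homology region (CHR, TTTGAA), often with CCAAT boxes upstream. *Top2a* was taken with the 3 G2/M genes of largest fold whose last 100 bases before the start held the CHR letters. Candidates on a single chromosome were left out of this choice. The distances given below are thus limited to that window. *Kif11* encodes the motor that pushes spindle poles apart and *Cdk1* the kinase that starts mitosis. Below are the last 100 bases before each start site in RefSeq, build GRCm38.p6, 5′ to 3′ on the strand of the gene, with TTTGAA or TTCAAA and CCAAT or ATTGG in capitals. They lie at chr11:99024190-99024289 (minus strand) for *Top2a*, chr2:129297213-129297312 (minus) for *Ckap2l*, chr19:37376282-37376381 (plus) for *Kif11* and chr10:69352913-69353012 (minus) for *Cdk1*, all upstream of the first exon.
Top2a: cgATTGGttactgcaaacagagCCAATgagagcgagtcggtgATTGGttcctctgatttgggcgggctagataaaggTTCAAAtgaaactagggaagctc
Ckap2l: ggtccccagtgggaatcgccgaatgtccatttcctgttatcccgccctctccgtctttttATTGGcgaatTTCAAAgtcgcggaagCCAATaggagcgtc
Kif11: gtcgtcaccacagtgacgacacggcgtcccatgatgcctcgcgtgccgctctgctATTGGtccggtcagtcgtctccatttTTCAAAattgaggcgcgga
Cdk1: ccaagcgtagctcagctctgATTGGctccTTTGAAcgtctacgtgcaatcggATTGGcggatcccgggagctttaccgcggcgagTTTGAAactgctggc

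The CHR letters began 23 bases before the start in *Top2a*, 30 in *Ckap2l*, 19 in *Kif11* and 15 in *Cdk1*, which held them a second time 71 bases before the start. Both strands of the 250 bases before the start were also searched, counted by gene. TTTGAA was found in 20 of the 47 G2/M genes with a RefSeq promoter (42.6%) and in 6 of 31 S phase genes (19.4%). It was found in 4934 of all 27025 genes with a promoter (18.3%). CCAAT was found in 36 of the 47 (76.6%), in 22 of the 31 (71.0%) and in 37.5% of all genes with a promoter. Matches of TTTGAA and CCAAT did not overlap in the stretches shown, and a match describes the sequence, not binding.

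By phase scores computed without *Mki67* and *Top2a* on thinned cells, 342 of 552 members were called S (62.0%, exact 95% interval 57.8 to 66), 191 were called G2/M (34.6%, 30.6 to 38.7) and 19 were called G1 (3.44%, 2.08 to 5.32). The rule chose the members on *Mki67* and *Top2a*, both in the G2/M list, so these shares describe the chosen cells and are not a test. Their intervals cover counting error only, and 432 of the 552 members came from Kaede-red. By library, S was called in 53.8%, 58.5% and 63.2% of members, G2/M in 46.2%, 34.0% and 34.0% and G1 in 0%, 7.45% and 2.78%. The intervals overlapped, but those of Kaede-green 1 rest on 26 members and were wide, at 26.6 to 66.6% for G2/M. Among comparators, 73.1% were called G1, 26% S and 0.847% G2/M, and among NK cells with 1 to 3 UMIs the shares were 54.7%, 42.0% and 3.32%. A phase is a range of a score and not a type: the S and G2/M scores differed by less than 0.1 in 80 of the 552 members. Free RNA can enter such scores, and its part was not tested.

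**Figure D2:**
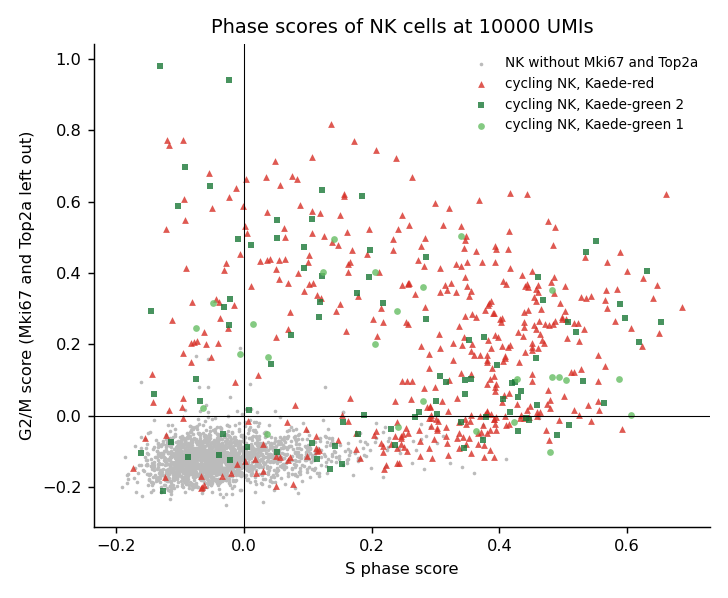
S phase score (horizontal axis) and G2/M score (vertical axis, *Mki67* and *Top2a* left out) of single NK cells thinned to 10000 UMIs, in score units. Gray points are comparators and colored points are members of each library. Members spread from high S scores to high G2/M scores, and 19 of 552 fell in the G1 range.

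Levels within the phases followed the phase in genes that the scores used and in some that they did not. *Pcna*, the replication clamp and an S phase list gene, stood at 436, 453 and 499 CPM in members called S and at 233, 141 and 227 CPM in those called G2/M. Several genes outside the lists also differed in the same direction in all 3 libraries. *Shmt1*, a folate enzyme that moves 1-carbon units from serine, stood at 21.4, 27.3 and 29.7 CPM in S and 8.33, 0 and 9.52 in G2/M. *Gzmb*, the granzyme that cleaves caspases, stood at 3571, 3500.0 and 3816 CPM in S and 2533, 2603 and 3008 in G2/M. *Itga1*, the integrin chain CD49a, went the other way, at 42.9, 29.1 and 56.8 CPM in S and 117, 93.8 and 105 in G2/M. *Tyrobp*, the signaling adaptor DAP12, stood at 1507, 1249 and 1422 CPM in S and 925, 1113 and 1163 in G2/M. These values come from as few as 12 cells in Kaede-green 1 and were not tested.

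To look beyond the cell cycle list, the members were compared with the comparators on 6 UMI sums, cycling and comparator in each of 3 libraries. The test was edgeR's quasi-likelihood test, with the library as a block and a Benjamini-Hochberg adjusted p of 0.05. The p-values measure only the spread between these 3 libraries. Of 9624 genes tested, 1290 rose (13.4%) and 954 fell (9.91%), so that 23.3% were called either way. Without the genes of the cell cycle list, 9235 were tested, of which 940 rose (10.2%) and 952 fell (10.3%). Against the nearest comparators 741 of 6774 genes rose (10.9%) and 399 fell (5.89%). Of the 940 rises 795 could be tested there, and 406 rose again while 3 fell. Of the 952 falls 849 could be tested, and 263 fell again while 1 rose. Against 2 nearest comparators per member 12.4% rose and 8.72% fell. These comparisons use the same members, and the list counts below are to be read beside their shares of all genes. Values given below as against the nearest are log2 fold changes from the comparison with 1 nearest comparator per member. The median log2 fold change of all genes was -0.03 against all comparators. Leaving out Kaede-green 2, the larger of the KG+ libraries by members, left 824 rises and 308 falls, and leaving out Kaede-red left 758 rises and 673 falls.

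**Figure D3:**
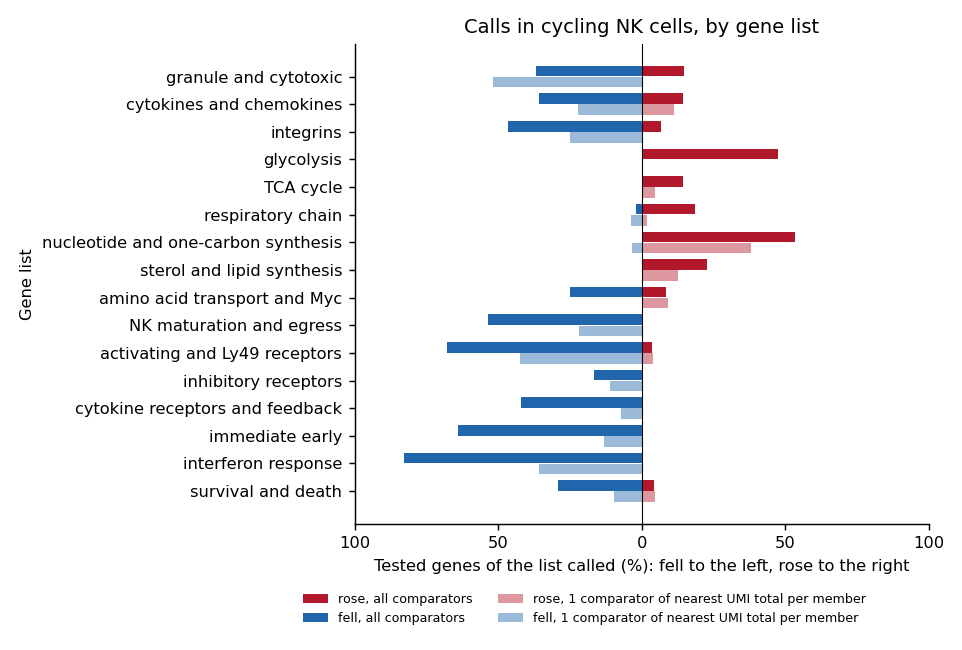
Share of the tested genes of each list that was called (percent, horizontal axis), falls to the left and rises to the right, against all comparators (dark bars) and against 1 comparator of nearest UMI total per member (light bars). In the interferon list 24 of 29 genes fell against all comparators and 10 of 28 against the nearest, whereas the 9 rises in the glycolysis list were not called against the nearest.

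The 10 largest rises outside the cell cycle list, among genes with a mean of at least 20 CPM and 1 direction in all 3 libraries, were led by *Tcf19* and *Zfp367*. Several of the 10 act in replication, chromatin or chromosome segregation, so being outside the list does not place them outside the cell cycle. Whether their rise is separate from the choice of cells by *Mki67* and *Top2a* was not tested. *Tcf19*, a PHD finger protein made at the G1/S transition, stood at 65.4, 26.6 and 55.1 CPM in the members and at 0.915, 4.99 and 3.40 in the comparators (log2 fold change 3.72 ± 0.29 SE, adjusted p = 1.2e-09). *Zfp367*, a zinc finger factor, stood at 53.8, 24.5 and 31.7 CPM against 5.79, 3.39 and 4.08 (2.90 ± 0.22, adjusted p = 1.1e-09). For both, every cycling sum lay above every comparator sum. The same was so for *Hirip3*, a histone-binding protein (log2 fold change 2.25), except that its lowest cycling value, 23.1 CPM, was nearer to the highest comparator value of 11.2. *Pmf1*, a kinetochore protein (1.96), *Suv39h1*, which methylates histone H3 in heterochromatin (1.77), *Nup85*, a nuclear pore protein (1.82), and *Fam111a*, a protease that acts at replication forks (1.72), rose as well. The others of the 10 were *Cmc2*, an assembly factor of cytochrome c oxidase (2.10), *Prdx4*, a peroxiredoxin of the endoplasmic reticulum (2.01), and *Fabp5*, a fatty acid binding protein, at 30.8, 42.6 and 37.7 CPM against 9.15, 9.58 and 9.60 (1.93 ± 0.18). All 10 also rose against the nearest comparators, *Fabp5* with a log2 fold change of 2.23.

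Granule genes were called in both directions against all comparators, and in the nearest comparison the calls were falls. Of 27 granule and cytotoxic genes tested, 4 rose and 10 fell, with a median log2 fold change of -0.22 beside -0.03 for all genes. Of all genes 13.4% rose and 9.91% fell, so the share of rises was near that of all genes. Without Kaede-green 2 the counts were 2 and 6, and with DESeq2 1 and 6. *Gzma*, which encodes the tryptase granzyme A, stood at 1969, 2826 and 2048 CPM in the members and 5901, 5945 and 3609 in the comparators. It was lower in all 3 libraries, without overlap, and fell by 1.21 on the log2 scale (SE 0.10, adjusted p = 1.9e-09), with -0.75 against the nearest comparators. *Gzmb* stood at 3092, 3169 and 3517 CPM against 4786, 4188 and 4105, again without overlap, and fell by 0.49 (SE 0.07, adjusted p = 3e-05) and was at -0.54 against the nearest. *Gzmk*, a further tryptase, was low throughout, at 3.85, 1.06 and 0.463 CPM against 7.93, 8.18 and 1.61, and fell by 2.08 (adjusted p = 0.018, and 0.22 without Kaede-green 2). *Nkg7*, a granule membrane protein that was picked out after its values were seen, fell by 0.77 on the log2 scale and was at -0.53 against the nearest.

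Among the granzymes encoded beside *Gzmb*, the sign of *Gzmc*, *Gzmd*, *Gzme* and *Gzmf* differed between all and the nearest comparators, and that of *Gzmg* did not. *Gzmc* stood at 9481, 9500.0 and 17690.0 CPM in the members and at 4091, 4761 and 13915 CPM in the comparators. It was higher in each library and rose with a log2 fold change of 0.77 ± 0.10 (adjusted p = 2.3e-06), but against the nearest comparators it fell by 0.55 (adjusted p = 1.9e-10) and against 2 nearest comparators per member it was at -0.17 (adjusted p = 0.022). *Gzmd* stood at 692, 416 and 1249.5 CPM against 56.1, 179.8 and 888, a log2 fold change of 1.41 ± 0.29 (adjusted p = 0.00087) that became -0.52 (adjusted p = 0.0017) against the nearest. In Kaede-green 1, where its fold was largest, the level came from the few members with fewer UMIs of *Mki67* and *Top2a*, at 700.0 CPM with 4 or 5 and 1667 CPM with 6 to 9, against 0 with 10 to 19 and 22.2 CPM with 20 or more. *Gzme* and *Gzmf* were likewise at 0 to 22.2 CPM from 10 UMIs on in that library, and the 9 cells with 6 to 9 UMIs held *Gzmf* at 1711 CPM. *Gzme* stood at 173, 217 and 544 CPM against 26.5, 84.8 and 427 and went from 0.95 to -0.76 in the same way, with an adjusted p of 0.074 without Kaede-green 2. Against 2 nearest comparators per member *Gzmd* and *Gzme* were at 0.24 and 0.01 and were not called. *Gzmf*, at 604, 54.3 and 881 CPM against 104, 136 and 876, was called in neither direction in the comparison with all comparators (0.33 ± 0.33, adjusted p = 0.53) and was lower against the nearest (-1.31, adjusted p = 0.00048). *Gzmg* stood at 19.2, 1.06 and 103 CPM against 0.305, 20 and 110.0 (-0.30, adjusted p = 0.48), and at -1.56 against the nearest. These genes are near-identical copies, so reads may be split between them or lost.

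Within bins of raw depth the values show where the sign turned. In Kaede-red, members with 10000 to 20000 UMIs had 12892 CPM of *Gzmc* and comparators of that depth 8910 CPM. At 20000 to 30000 UMIs the values were 13992 and 19500.0 CPM, at 30000 to 40000 they were 17284 and 25669, and at 40000 or more 21696 and 28727. In Kaede-green 2 members were at 3843, 7325 and 12047 CPM in the first 3 bins, and comparators at 3106, 11245 and 21394. Between 20000 and 40000 UMIs the members were therefore lower in both libraries. At 40000 or more, 13 members of Kaede-green 2 were at 15408 CPM and the single comparator cell at 14600 CPM, so the order did not hold there. In Kaede-green 1, with 3 to 13 members a bin, the members stood at 11200, 8986, 9377 and 9367 CPM and did not go up with depth, while its comparators stood at 3053, 13228 and 20280 CPM in the 3 bins that held any. *Gzma* went the other way in the comparators of Kaede-red, from 3838 to 3180 CPM between the first and last bin, and was lower in the members in every bin of that library.

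**Figure D4:**
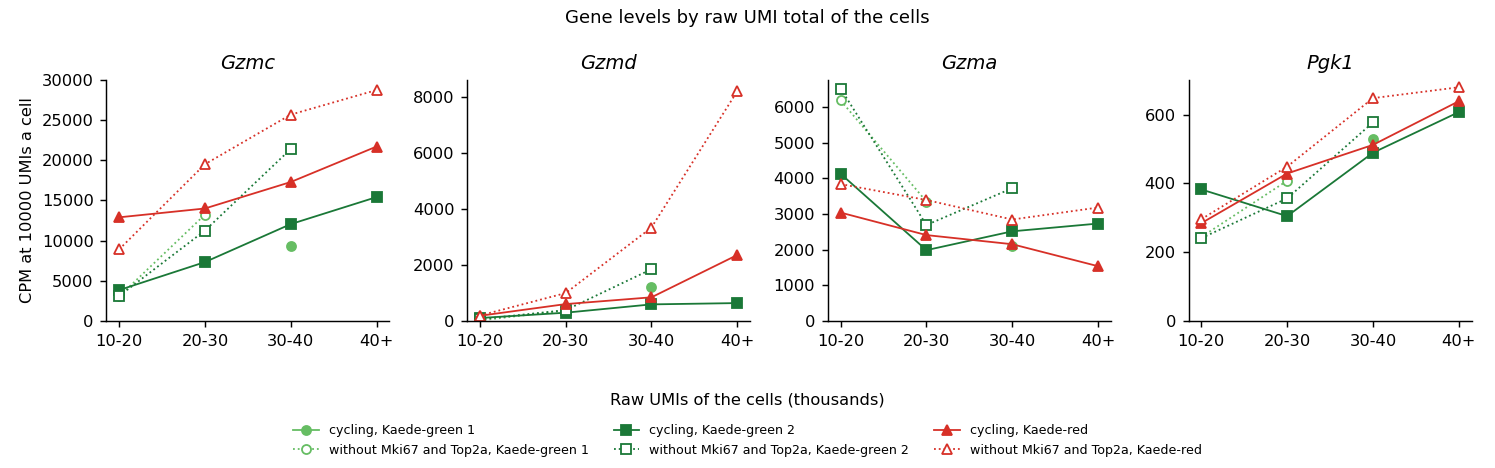
Level of *Gzmc*, *Gzmd*, *Gzma* and *Pgk1* (CPM after thinning to 10000 UMIs a cell, vertical axes) by the raw UMI total of the cells (in units of 1000, horizontal axes), in members (filled) and comparators (open) of each library. Only groups of 10 or more cells are drawn. In Kaede-red, *Gzmc* of the comparators climbs from 8910 to 28727 CPM and passes that of the members above 20000 UMIs.

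*Prf1*, which encodes perforin, the pore-forming protein, stood at 662, 633 and 685 CPM against 685, 693 and 800.3. The difference missed the threshold (log2 fold change -0.22 ± 0.08, adjusted p = 0.054), and against the nearest comparators it was -0.47 (adjusted p = 2.3e-05). Against those comparators 13 of 25 granule genes fell and 0 rose by edgeR's test (median log2 fold change -0.35), with 16 lower and 0 higher at an unadjusted p under 0.05. Of the 13 falls, 5 were also falls against all comparators. *Ifng*, the gene of interferon-γ, stood at 61.5, 57.4 and 61.1 CPM in the members and at 151, 137 and 66.5 in the comparators. Its level was alike in the 3 cycling sums, and the gap was small in Kaede-red (log2 fold change -0.70 ± 0.16, adjusted p = 0.003, and -0.33 with adjusted p = 0.13 against the nearest). Without Kaede-green 2 it was -0.49 (adjusted p = 0.17).

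**Figure D5:**
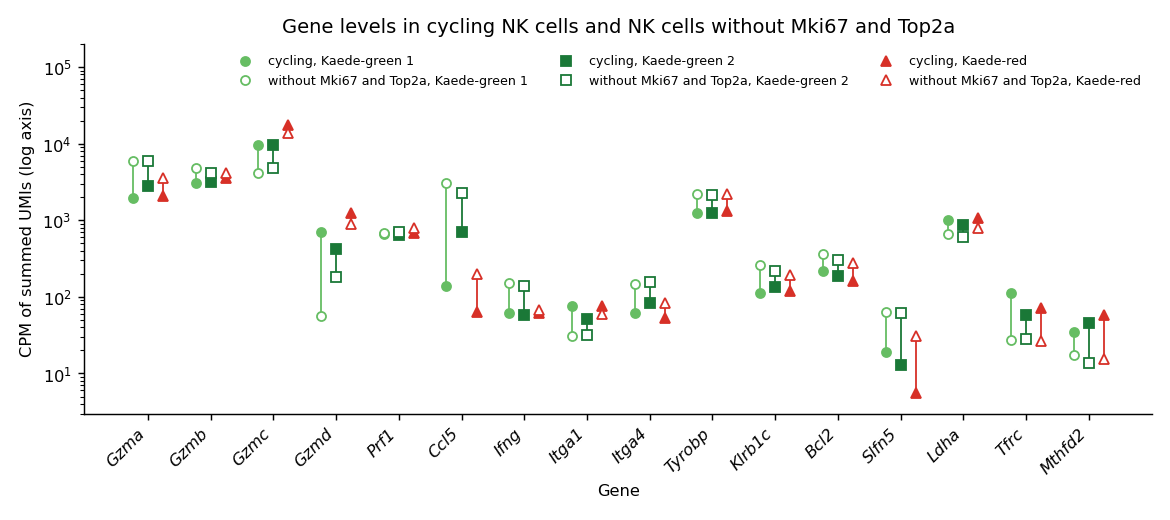
Levels (CPM of summed UMIs at 10000 UMIs a cell, log axis) of 16 genes in members (filled) and comparators (open), joined by a line within each library. *Gzma*, *Ccl5*, *Itga4*, *Tyrobp*, *Klrb1c*, *Bcl2* and *Slfn5* were lower in the members of all 3 libraries, and *Gzmc*, *Gzmd*, *Ldha*, *Tfrc* and *Mthfd2* higher.

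Of 14 cytokine and chemokine genes tested, 2 rose, 5 fell and 7 were not called (median log2 fold change -0.14), and against the nearest comparators 1 of 9 rose and 2 fell (median 0.01). Of all genes 13.4% rose and 9.91% fell against all comparators, so the share of rises was near that of all genes. *Ccl5*, the chemokine RANTES, stood at 138, 702 and 62.5 CPM against 3099, 2300.4 and 199. It fell by 2.34 (SE 0.26, adjusted p = 3e-07), but its spread among libraries was wide in both groups, and against the nearest comparators the log2 difference was -0.54 (adjusted p = 0.079). *Ccl4*, also called MIP-1β, stood at 46.2, 104 and 58.1 CPM against 484, 423 and 98.8 and fell by 1.67 on the log2 scale, with -0.62 against the nearest. *Ccl3*, or MIP-1α, at 0, 17.0 and 4.17 CPM against 71.6, 80.8 and 11.6, fell by 2.17. *Ccl1*, a ligand of CCR8, rose with a log2 fold change of 1.52 ± 0.19 (adjusted p = 2e-06), and 0.59 against the nearest. Its values disagreed between libraries, at 7.69, 62.8 and 114 CPM against 20.4, 19.4 and 33.4, since it was lower in the members of Kaede-green 1.

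Integrins, the adhesion receptors built from an α and a β chain, were called lower more often than higher. Of 15 integrin and ligand genes tested 7 fell and 1 rose (median log2 fold change -0.27), and against the nearest comparators 3 of 12 fell, as did 3 of 15 without Kaede-green 2. *Itga4*, the α chain of VLA-4, stood at 61.5, 84.0 and 53.2 CPM against 146, 158 and 83.8. It fell by 0.89 (SE 0.12, adjusted p = 6.3e-06), with -0.49 against the nearest. *Itgb3*, the β3 chain, stood at 7.69, 31.9 and 39.6 CPM against 55.2, 43.5 and 48.3 and fell by 0.54 (adjusted p = 0.033, and 0.18 without Kaede-green 2), with -0.85 against the nearest. *Icam1*, a ligand of the integrin LFA-1, stood at 57.7, 67.0 and 53.7 CPM against 139.6, 108 and 69.5 and fell by 0.66 on the log2 scale, with -0.42 against the nearest. These 3 are the ones that fell in both comparisons.

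The collagen-binding integrins CD49a and CD49b were called in opposite directions against all comparators and were not called against the nearest. *Itga1*, for CD49a, stood at 76.9, 52.1 and 75.5 CPM in the members and 30.8, 31.5 and 59.0 in the comparators, a log2 fold change of 0.49 ± 0.15 (adjusted p = 0.017). At least 1 UMI of it was found in 397 of 568 members. Against the nearest comparators the difference was -0.11 (adjusted p = 0.70), and without Kaede-green 2 it was 0.52 (adjusted p = 0.15). *Itga2*, for CD49b, stood at 0, 18.1 and 11.1 CPM against 46.0, 35.3 and 15.5 and fell by 0.93 (adjusted p = 0.011), with -0.13 (adjusted p = 0.87) against the nearest, and an adjusted p of 0.15 without Kaede-green 2. *Itgam*, for CD11b of mature NK cells, was too low to be tested, at 0, 2.13 and 0.463 CPM against 14, 8.98 and 2.38, and so was *Itgae*, at 3.85, 0 and 1.62 CPM against 0.915, 2.79 and 2.29.

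Among metabolic genes, many of those of nucleotide supply rose. Of 30 genes of nucleotide and 1-carbon synthesis tested, 16 rose and the other 14 were not called (median log2 fold change 0.59), and 10 of the 16 also rose against the nearest comparators, where 11 of 29 rose and 1 fell. Without Kaede-green 2, 10 of 30 rose, and with DESeq2 9 of 30. *Mthfd2*, a mitochondrial folate enzyme, stood at 34.6, 45.7 and 57.2 CPM in the members and at 17.4, 13.8 and 15.5 in the comparators, without overlap. It rose with a log2 fold change of 1.68 ± 0.16 (adjusted p = 5e-08), and 1.53 against the nearest. *Shmt1* stood at 15.4, 16 and 22 CPM against 5.49, 4.19 and 5.95 (1.78 ± 0.24, adjusted p = 6.6e-06), and *Pfas*, a step of purine synthesis, at 26.9, 12.8 and 23.4 CPM against 7.62, 5.59 and 9.35 (1.28 ± 0.22, adjusted p = 0.00017). *Psat1*, of serine synthesis, rose with a log2 fold change of 1.07. All 4 kept their direction and call against the nearest comparators, with log2 fold changes of 1.53, 1.21, 1.07 and 0.93.

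*Tfrc*, the transferrin receptor through which cells take up iron, was the single rise among 12 genes of amino acid transport and Myc, of which 3 fell. It stood at 112, 57.4 and 70.8 CPM against 27.4, 28.5 and 26.6 (log2 fold change 1.33 ± 0.15, adjusted p = 4.5e-07), and at 0.89 against the nearest. *Myc* itself, at 15.4, 12.8 and 17.6 CPM against 30.5, 22.6 and 18.4, missed the threshold (-0.38 ± 0.20, adjusted p = 0.20). The amino acid transporter genes *Slc3a2* and *Slc38a2* each fell by 0.45, and *Mxd4*, a Myc antagonist, fell by 0.94. These 3 calls were lost against the nearest comparators, with log2 differences of -0.10, -0.01 and -0.52. There *Tfrc* alone of 11 genes was called. Among all genes tested 13.4% rose and 9.91% fell against all comparators, and 10.9% rose and 5.89% fell against the nearest. In neither comparison was the share of rises in this list above that of all genes.

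The glycolysis genes that were called were higher against all comparators, and none was called against the nearest. Of 19 tested, 9 rose and the other 10 were not called (median log2 fold change 0.26). *Ldha*, lactate dehydrogenase A, stood at 1008, 857 and 1082 CPM against 663, 607 and 789 (0.44 ± 0.08, adjusted p = 0.00017), without overlap between groups. *Pgk1* stood at 573, 440.4 and 524 CPM against 261, 268 and 379.6 (0.65 ± 0.10, adjusted p = 4.3e-05), and *Tpi1* at 412, 369 and 424 CPM against 242, 219 and 289 (0.60 ± 0.09, adjusted p = 3e-05). Against the nearest comparators the log2 differences of *Ldha*, *Pgk1* and *Tpi1* were -0.05, 0.05 and 0.06, and edgeR's test called 0 of 18 glycolysis genes, with 0 higher and 3 lower at an unadjusted p under 0.05. Against 2 nearest comparators per member 2 of 18 rose, and without Kaede-green 2 against all comparators 4 of 19. *Pgam1* (0.49) and the lactate transporter gene *Slc16a1* (0.78) were among the rises against all comparators, with -0.01 and 0.55 against the nearest, where neither was called. *Slc2a1*, the glucose transporter GLUT1, stood at 26.9, 34.0 and 32.9 CPM against 40.2, 37.3 and 35.1 and was called in neither comparison (-0.22, adjusted p = 0.34).

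Some mitochondrial and sterol genes were called as well, and no test compared these lists with others. Of all genes tested 13.4% rose and 9.91% fell against all comparators, and 10.9% rose and 5.89% fell against the nearest. Of 21 genes of the TCA cycle 3 rose, a share near that of all genes. They were led by *Fh1*, fumarase, at 92.3, 70.2 and 75.2 CPM against 32.0, 36.5 and 43.9 (log2 fold change 0.86 ± 0.14, adjusted p = 5.8e-05, and 0.51 against the nearest). *Idh3a* and *Sdhd* rose with 0.41 and 0.37, and *Fh1* alone of the 21 rose against the nearest comparators. Of 54 respiratory chain genes 10 rose and 1 fell, the largest being *Ndufab1*, the mitochondrial acyl carrier protein, with 0.59, followed by the complex I genes *Ndufa5* and *Ndufc2* with 0.40 and 0.39, while *Ndufa6*, of the same complex, fell by 0.46. Against the nearest comparators 1 of 54 rose and 2 fell (median log2 fold change -0.01), and *Ndufab1*, *Ndufa5* and *Ndufc2* were not called, with 0.22, 0.19 and 0.17. Without Kaede-green 2 the counts were 1 rise among TCA cycle genes, and 1 rise and 1 fall in the respiratory chain. Of 22 sterol and lipid genes 5 rose, and 2 of 16 against the nearest. Without Kaede-red 2 of 22 rose, and with DESeq2 also 2 of 22. Among the 5 were *Fdps* at 150.0, 107 and 125 CPM against 56.1, 56.3 and 65.7 (0.94 ± 0.12, adjusted p = 1.8e-06, and 0.30 with adjusted p = 0.13 against the nearest) and *Idi1* (0.91, and 0.56 against the nearest), both of the isoprenoid steps of the pathway. *Fdft1*, further along it, rose with 1.17 at levels between 9.49 and 12.8 CPM against 4.16 to 7.01, and had an adjusted p of 0.10 without Kaede-red.

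Among activating receptor genes and their adaptors falls outnumbered rises. With *Ncr1*, which chose the cells, left out of the list, 28 activating and Ly49 receptor genes were tested, of which 19 fell, 1 rose and 8 were not called (median log2 fold change -0.44), and 12 of 27 fell without Kaede-green 2. With DESeq2 10 of 28 fell and 0 rose. *Tyrobp* stood at 1238, 1256 and 1339 CPM against 2172, 2138 and 2226. The cycling sums were close together and far from the comparators, and the gene fell by 0.84 (SE 0.07, adjusted p = 3.8e-09), with -0.65 against the nearest. *Fcer1g*, the other main adaptor of NK receptors, stood at 1735, 1828 and 1880.3 CPM against 2585, 2438 and 2517 and fell by 0.54, with -0.48 against the nearest. *Klrb1c*, for NK1.1, stood at 112, 134 and 119.7 CPM against 257, 219 and 194 and fell by 0.85, with -0.37 against the nearest. *Hcst*, for the adaptor DAP10 of NKG2D, fell by 0.85, *Klra8*, for a Ly49 receptor, fell by 0.92, and *Klra9*, for another, fell by 0.88, with -0.35, -0.61 and -0.24 against the nearest, where *Klra9* was not called (adjusted p = 0.49). Ly49 genes are close copies of each other, so their single values are uncertain. Against the nearest comparators 11 of 26 fell, all of them among the 19, and 1 rose. Of 12 inhibitory receptor genes 2 fell, *Lilrb4a* (log2 fold change -0.67) and *Entpd1*, for CD39 (-1.14), the other 10 were not called, and the median was 0.08. Against the nearest 1 of 9 fell. The difference between these lists was not tested.

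Of 28 genes of NK maturation and egress tested 15 fell and the other 13 were not called, and against the nearest comparators 5 of 23 fell, while without Kaede-green 2 it was 6 of 27. *Eomes* stood at 119, 122 and 78.5 CPM against 165, 153 and 98.8 and fell by 0.42 (adjusted p = 0.0044, and 0.085 without Kaede-green 2), with -0.11 (adjusted p = 0.67) against the nearest. *Klf2*, a factor that maintains egress receptors, stood at 19.2, 102 and 26.9 CPM against 145, 177 and 46.9 and fell by 1.05, with -0.15 against the nearest. *Cxcr4*, a chemokine receptor of bone marrow homing, fell by 0.99, with 0.02 against the nearest. *Klf3* and *Prdm1*, for the factor Blimp-1, had log2 fold changes of -1.32 and -1.46 at levels of at most 16.2 CPM, too low to be tested against the nearest.

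Of 29 interferon-induced genes tested 24 fell and the other 5 were not called (median log2 fold change -0.72), and 10 of 28 fell against the nearest comparators (median -0.31). Without Kaede-green 2, 15 of 29 fell. *Slfn5*, a Schlafen family gene, stood at 19.2, 12.8 and 5.56 CPM against 62.5, 61.7 and 31.0. The groups did not overlap. Among genes outside the cell cycle list with a mean of at least 20 CPM and 1 direction in all 3 libraries it had the largest fall, and it fell by 2.39 (SE 0.20, adjusted p = 4.3e-09), with -2.48 against the nearest. *Ifit1*, which binds foreign RNA, stood at 19.2, 42.6 and 18.1 CPM against 87.8, 65.5 and 41.2 and fell by 1.15, with -0.76 against the nearest. *Irf7*, a transcription factor of the interferon response, stood at 84.6, 116 and 94.2 CPM against 232, 208 and 158 and fell by 0.95, with -0.50 against the nearest. *Ifit2* fell by 1.13, with -0.76 (adjusted p = 0.088) against the nearest.

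Most immediate early genes fell against all comparators too, as did some of the cytokine receptor and survival genes. Of all genes tested 9.91% fell there and 5.89% against the nearest, and the difference between these lists was not tested. Of 25 immediate early genes 16 fell and the other 9 were not called, and 3 of 23 fell against the nearest comparators. Without Kaede-green 2 the falls were 9 of 25 here, 6 of 31 among cytokine receptor genes and 2 of 24 among survival genes. *Btg1*, a growth-restraining gene, stood at 623, 954 and 534 CPM against 1862, 1929 and 863 and fell by 1.12, with -0.36 against the nearest. *Zfp36*, which speeds the decay of mRNAs, fell by 0.98, with -0.53 against the nearest. *Ier5* fell by 0.81 and *Dusp5*, for a phosphatase of ERK, fell by 0.76, and neither was called against the nearest (-0.27 and -0.24). Of 31 genes of cytokine receptors and their feedback 13 fell, led by the kinase genes *Pim2* (fell by 1.01) and *Pim1* (fell by 0.94), the IL-10 receptor gene *Il10ra* (fell by 0.95) and the interferon-γ receptor gene *Ifngr1* (fell by 0.88), but 2 of 27 fell against the nearest. None of these 4 was among the 2, with log2 differences of -0.58, -0.13, -0.54 and -0.18. Of 24 survival genes 7 fell, 1 rose and 16 were not called (median log2 fold change -0.11), and against the nearest comparators 2 of 21 fell and 1 rose. *Bcl2*, the anti-apoptotic gene, stood at 215, 185 and 161 CPM against 368, 299 and 274 and fell by 0.81, while *Bcl2l11*, for its antagonist BIM, stood at 212, 272 and 209 CPM against 438, 492 and 280.3 and fell by 0.78. Against the nearest comparators they were at -0.45 and -0.30, so the pro- and the anti-apoptotic gene were lower together. *Fas*, a death receptor, and *Trp53inp1*, a p53 target, had log2 fold changes of -1.34 and -0.80 at levels of at most 21.2 CPM.

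The remaining large falls included *Il1b*, the gene of a myeloid cytokine, at 0, 23.4 and 0.694 CPM against 16.5, 101 and 1.70 (it fell by 2.14), which went with the myeloid markers at 3.85, 16.0 and 4.63 CPM against 15.5, 61.7 and 12.2. *Igkc*, an immunoglobulin light chain, was at 0, 3.19 and 2.55 CPM against 12.2, 54.7 and 1.78. Neither is an NK gene, and the part of free RNA in both was not tested. *Hes1*, a Notch target, fell by 1.34 and *Pde2a*, a phosphodiesterase, fell by 1.31, with -0.12 and -0.42 against the nearest comparators. *Mir142hg*, the host transcript of a blood cell microRNA, fell by 1.27 and *Crebrf*, a regulator of stress responses, fell by 1.23, with -0.89 and, not called, -0.57 against the nearest. *Trbc1* (log2 fold change -0.49) and *Trbc2* (-0.53) were the T cell markers called.

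Between the colors, the members differed in several of these genes, which can be given as values only. *Gzmc* was at 17690.0 CPM in the members of Kaede-red and at 9481 and 9500.0 in those of the KG+ libraries, *Eomes* at 78.5 against 119 and 122, and *Btg1* at 534 against 623 and 954. *Ccl5* was at 62.5 CPM in the members of Kaede-red and at 138 and 702 in those of the KG+ libraries, a spread between the KG+ libraries larger than the gap to Kaede-red. *Tyrobp*, *Gzma*, *Prf1* and *Itga1* in Kaede-red lay within or near the range of the KG+ members. For *Btg1*, too, the KG+ libraries lay farther from each other than the nearer of them from Kaede-red. In the comparators, too, Kaede-red was above both KG+ libraries for *Gzmc*, at 13915 CPM against 4091 and 4761. It was below them for *Ccl5*, at 199 against 3099 and 2300.4, *Eomes*, at 98.8 against 165 and 153, and *Btg1*, at 863 against 1862 and 1929. For *Ccl5* and *Eomes* the KG+ libraries stood in the opposite order to that in the members.

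Few genes were called for a difference between NK cells and CD8 T cells of the same libraries in how they went with cycling. In CD8 T cells 1819 of 10650 genes rose (17.1%) and 1626 fell (15.3%) with cycling, 32.3% in all. Of the 940 rises in NK cells outside the cell cycle list 790 also rose in CD8 T cells, which is 84.0% of the NK rises and 54.8% of the 1442 CD8 T rises outside that list, and of the 952 falls 674 also fell (70.8%, and 41.6% of 1621). The CD8 T groups also differed in depth, with medians of 28846, 27328 and 26214 raw UMIs in cycling cells and 13086, 13093.5 and 14357 in their comparators. They were not compared at nearest depth, so the part of depth in the shared calls was not tested. In a test of the difference itself, the interaction of cycling and lineage over 12 sums, 17 of 10545 genes were called (0.161%), 14 with a more positive log2 fold change in NK cells (0.133%) and 3 with a more negative one (0.0284%). *Tyrobp* was lower by less in NK cells, with a log2 fold change of -0.84 against -1.84 in CD8 T cells (difference 1.04, adjusted p = 0.021), and so was *Fcer1g* (difference 0.72, adjusted p = 0.021). In CD8 T cells both are low, *Tyrobp* at 45.8, 49.3 and 22.8 CPM in cycling cells and 110.0, 265 and 60.6 in their comparators. *Ccl1* rose in NK cells but fell by 0.80 in CD8 T cells, where it stood at 55.4, 101 and 79.0 CPM against 189, 162 and 80.6 (difference 2.34, adjusted p = 0.0077). *Mef2c*, a transcription factor of B cells, differed by 2.81 (adjusted p = 0.0045). In NK cells it stood at 30.8, 40.4 and 18.3 CPM against 36.3, 39.3 and 18.9, and in CD8 T cells it was at most 21 CPM. *Atp1b1*, a sodium pump subunit, differed by 1.42 (adjusted p = 0.012), and *Agpat3*, a lipid acyltransferase, was the named gene with a more negative log2 fold change in NK cells (difference -0.84, adjusted p = 0.032). By edgeR's quasi-likelihood test 0 genes were called without thinning and 0 without the library block, with 913 and 318 at an unadjusted p under 0.05. Without Kaede-green 2, *Ccl1* alone of these 6 genes was called, with 340 genes at an unadjusted p under 0.05.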

How the data were processed

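Leukocytes of 1 KR+ and 2 KG+ sorts were sequenced as 3' droplet libraries. The files hold raw UMI counts, which the authors deposited after cell calling by Cell Ranger (6.1.2 in the submitters' processing notes, 6.0.1 in the matrix headers) on mm10, without normalization. The 3 tables held 10498, 12327 and 11956 barcodes with 87193225, 129438292 and 175848894 UMIs (Kaede-green 1, Kaede-green 2, Kaede-red), and 0 columns were left without a sample.

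Counts were used as deposited. Quality control asked for 1000 to 6000 genes and a mitochondrial share under 7.5%. Doublets were scored per library and not removed, except in an alternative that left out the top 6% of scores. Cells were thinned without replacement to 10000 UMIs (random seed 1), summed per library and group, and tested with edgeR 4.0.16 in R 4.3.3 (glmQLFit and glmQLFTest, TMM, filterByExpr, Benjamini-Hochberg adjustment, threshold 0.05) with the library as a block. Both sums of a library come from the same cell suspension, which is the source of the pairing. Log2 fold changes are given with their standard error. The interaction with CD8 T cells used 12 sums. Levels are CPM of the thinned sums, and a CPM of a 3' UMI sum is not scaled by gene length. Phases were scored with scanpy 1.11.5. Intervals are exact (Clopper-Pearson, 95%) and cover counting error only. The fit was tested on simulated data. Promoters and their coordinates came from RefSeq tables of GRCm38.p6 and were matched by symbol.

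Named genes were the called genes with the largest fold in each list (up to 4), a set of NK genes always shown, and the 10 largest rises and falls outside the cell cycle list with 1 direction in all 3 libraries and a mean of at least 20 CPM. The interaction added the 5 largest each way under the same limits. The cell cycle list held 434 genes, 389 of them tested. The members, the lists and the tests were chosen with earlier results of these data known. Of the 22 alternatives of the main comparison 4 were added after the data were seen (nearest single comparators, doublet scores, 3 or more *Ncr1* UMIs, *Rora*), as was the one on doublets for the shares. DESeq2 1.42.0 was one of the alternatives. Flow cytometry and other time points of the study were not analyzed here. Some marker and pathway genes that entered the lists and counts are not reported here by name.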

Additional observations from a re-analysis of the deposited data

Results flagged for a closer look

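The interaction test of cycling and lineage differed between NK cells and CD8 T cells for the 6 named genes. The log2 fold change with cycling was more positive in NK cells for *Mef2c* (by 2.813, -0.10 against -2.87 in CD8 T cells), *Ccl1* (by 2.339, 1.52 against -0.80), *Atp1b1* (by 1.417, 0.06 against -1.33), *Tyrobp* (by 1.037, -0.84 against -1.84) and *Fcer1g* (by 0.719, -0.54 against -1.22). It was more negative in NK cells for *Agpat3* (difference -0.8421, -0.84 against 0.03). *Atp1b1* stood at 65.4, 85.1 and 85.9 CPM in cycling NK cells against 85.7, 70.5 and 76.9 in their comparators, and at 9.52, 8.36 and 5.24 CPM in cycling CD8 T cells against 20.8, 26.3 and 9.86. *Agpat3* stood at 53.8, 51.1 and 33.6 CPM against 104, 87.4 and 55.9 in NK cells and at 64.3, 61.1 and 54.9 CPM against 53.3, 54.4 and 56.4 in CD8 T cells. *Mef2c* stood at 931 CPM in B cells. The part of free or doublet RNA in the low CD8 T values of *Mef2c*, *Tyrobp* and *Fcer1g* was not tested.

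*Igkc* had opposite signs between the colors. It was lower in the members of both KG+ libraries, at 0 and 3.19 CPM against 12.2 and 54.7, and higher in those of Kaede-red, at 2.55 against 1.78, with a log2 fold change of -2.156 over the 3 libraries. The difference between colors was not tested.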

How the results depend on the processing

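The counts of 1290 rises and 954 falls varied with the setting. Rises and falls numbered 741 and 399 against the nearest single comparators, 709 and 386 with DESeq2, 709 and 408 among *Itga1*-positive cells and 315 and 237 without any UMI of 5 T cell genes, where fewer cells were left. Falls numbered 607 with 3 or more *Ncr1* UMIs, 469 without the replicate block and 1690 without thinning. With DESeq2 the falls were 8 of 28 for NK maturation and egress, 3 of 15 for integrins and 3 of 24 for survival genes. The rises with DESeq2 were 1 of 21 for the TCA cycle and 2 of 54 for the respiratory chain. Leaving out 1 library gave 758 to 1464 rises and 308 to 1017 falls. Without Kaede-green 2 there were 824 and 308, and without Kaede-red 758 rises. The interaction (14 larger, 3 smaller, that is with a more positive or more negative log2 fold change in NK cells) gave 44 and 49 at 5000 UMIs, 49 and 60 without the low-count filter, 0 and 0 without thinning or without the replicate block, 9 and 1 with another seed, 3 larger with DESeq2, 5 smaller with RLE size factors and 9 smaller at a cut of 2. Leaving out 1 library gave 11 to 20 larger and 2 to 12 smaller, with 12 smaller without Kaede-red. The shares became 3.55%, 10.2% and 22.9% at a cut of 2, 0.695%, 2.64% and 10.3% at a cut of 8, 0.612%, 0.912% and 6.48% without T cell UMIs, 9.09%, 15.4% and 19.1% at 10000 UMIs and 1.82%, 5.35% and 11.4% at 5000. G1, S and G2/M calls became 20.7%, 56.9% and 22.3% at a cut of 2, and G1 and G2/M 0.490% and 41.2% at a cut of 8.

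The named genes gave 101 results, with the genes of the interaction counted again for their interaction result. Of these 101 results 36 lost no call and turned no sign under any alternative that tested them. A result that was not called at first had no call to lose and could be among the 36. Signs turned against the nearest single comparators for *Gzmc* (-0.55), *Gzmd* (-0.52), *Gzme* (-0.76), *Gzmf* (-1.31), *Itga1* (-0.11), *Ldha* (-0.053), *Pgam1* (-0.011) and *Cxcr4* (0.024), and against 2 nearest for *Gzmc* (-0.17) and *Gzmf* (-0.79). *Mef2c* also went from -0.10 to 0.22 against the nearest single and 0.11 against 2 nearest, but was called in none of these comparisons. Such a change of sign without a call was not counted as a turn for the 36. *Gzmf* was also at -1.12 at a cut of 8 and between -0.34 and 1.03 when 1 library was left out, the lower value without Kaede-green 1. *Itga1* was at -0.19 among *Itga1*-positive cells, *Atp1b1* at -0.40 and *Igkc* at 0.84 at 5000 UMIs, and *Ccl1* at -0.28 and *Trbc2* at 0.33 without T cell UMIs. The nearest comparators are fewer and deeper cells by construction; for the other settings the cause was not tested. The median of all genes shifted to -0.10 at 5000 UMIs and -0.14 without the filter.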
